A study of Saccharomyces cerevisiae with 4 samples.

Results

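Peroxisomal fatty acid oxidation was followed through 10 genes, PXA1, PXA2, FAA2, POX1, FOX2, POT1, ECI1, DCI1, SPS19 and CTA1, chosen by their systematic names from the 7126 features of a transcript table of budding yeast. All 10 were found, all were above 0 in every library, and all passed the filter on low values. The table covers 4 libraries of ribosome-depleted total RNA from whole cells of Saccharomyces cerevisiae grown at 30 °C in YPD, a rich glucose medium, to early log phase. There were 2 libraries of dbp2null, strain BTY115, which is MATa, carries dbp2::KanMx in place of the DEAD-box RNA helicase gene DBP2, and is listed with ura3Δ0, leu2Δ0, his3Δ0, TRP1, met- and lysΔ. The other 2 came from wild type, which is MATa with his3Δ1, leu2Δ0, met15Δ0 and ura3Δ0. Each genotype is represented by 1 labelled strain, so the DBP2 deletion and the differing auxotrophy markers cannot be told apart. The second library of a genotype is described by the submitters as a biological replicate.

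In budding yeast the β-oxidation of fatty acids takes place in peroxisomes, not in mitochondria. Long-chain acyl-CoA enters through an ABC transporter made of Pxa1 and Pxa2, a cycle of oxidation, hydration and thiolysis shortens it, and the hydrogen peroxide released by the first step is destroyed by a catalase. The genes are kept low on glucose and are strongly induced on oleate by the factors Oaf1 and Pip2, which bind together to the oleate response element, and by Adr1. In YPD their low level is the usual state, so the question the table can answer is whether that state differs in cells without Dbp2.

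The upstream sequences of these genes are shown first, since the oleate response element is the feature for which the family is best known. The element was searched on both strands as CGGNNNTNA, a spacer of 9 to 12 bases and CCG, in the 500 bases before each start codon in RefSeq's R64 assembly, the build that sacCer3 also denotes. It was found before 9 of the 10 genes and before 113 of 6000 nuclear protein-coding genes (1.88%). The consensus was built in the literature from genes of this family, so the high share among them is a description and no independent observation. In the lines that follow, each window reads 5′ to 3′ on the gene's strand, with the fixed bases of the element in capitals and 12 flanking bases on either side. A match on the opposite strand reads CGG, spacer, TNANNNCCG.
PXA2, chrXI:89023-89070, minus strand: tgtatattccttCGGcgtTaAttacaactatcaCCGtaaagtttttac
FAA2, chrV:184343-184389, plus strand: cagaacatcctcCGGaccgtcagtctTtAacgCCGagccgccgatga
POX1, chrVII:107834-107880, plus strand: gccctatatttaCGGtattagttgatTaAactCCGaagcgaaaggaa
POX1, chrVII:107871-107917, plus strand: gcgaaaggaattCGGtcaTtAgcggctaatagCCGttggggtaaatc
FOX2, chrXI:457325-457370, minus strand: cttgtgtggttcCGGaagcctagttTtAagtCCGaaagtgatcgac
FOX2, chrXI:457293-457337, minus strand: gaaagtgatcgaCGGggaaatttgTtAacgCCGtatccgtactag
POT1, chrIX:41598-41644, minus strand: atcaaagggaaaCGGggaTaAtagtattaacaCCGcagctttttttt
ECI1, chrXII:707179-707225, minus strand: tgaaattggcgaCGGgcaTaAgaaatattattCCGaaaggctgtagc
DCI1, chrXV:675274-675321, minus strand: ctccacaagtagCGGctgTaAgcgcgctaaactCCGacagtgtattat
SPS19, chrXIV:259400-259447, plus strand: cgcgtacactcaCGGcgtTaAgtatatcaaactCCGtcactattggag
CTA1, chrIV:969854-969901, minus strand: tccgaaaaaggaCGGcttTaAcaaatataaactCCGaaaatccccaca

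These are 11 sites between 119 and 312 bases before the start codon. POX1 and FOX2 hold 2 each, and the windows of each pair overlap at their ends. In 4 of the 11, those of POT1, DCI1 and CTA1 and the nearer one of POX1, the letters match on both strands. PXA1 was the gene with no match in this window, which says only that these letters are not in it. The Mig1 core, searched on both strands as CCGGGG and as CTGGGG, and also as GCGGGG and as GTGGGG, was present before FAA2, DCI1 and CTA1, that is 3 of 10 genes against 22.7% of all 6000. Mig1 is a glucose-dependent repressor. No sequence match here was tested for binding.

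All 10 genes were weakly expressed in wild type and read higher in both dbp2null libraries, and none passed the test across all features. Values are FPKM, fragments per kilobase of feature, scaled by the mapped fragments of the library, so levels can be compared between genes. Means in wild type ran from 3.56 FPKM for PXA2 to 12.2 FPKM for CTA1, and in dbp2null from 15.3 FPKM for FAA2 to 28.6 FPKM for DCI1. The ratio of means was 1.90 for CTA1 and 4.53 for PXA2, with the others between. Genes that growing haploid cells do not need also read higher. A list of 53 sporulation and meiosis genes had medians of 4.32 and 3.18 FPKM in wild type and 10.8 and 18.4 FPKM in dbp2null. Whether the difference in the oxidation genes is part of that wider one was not tested. In bulk RNA, more cells that express a gene and more of its RNA per cell cannot be told apart.

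**Figure D1:**
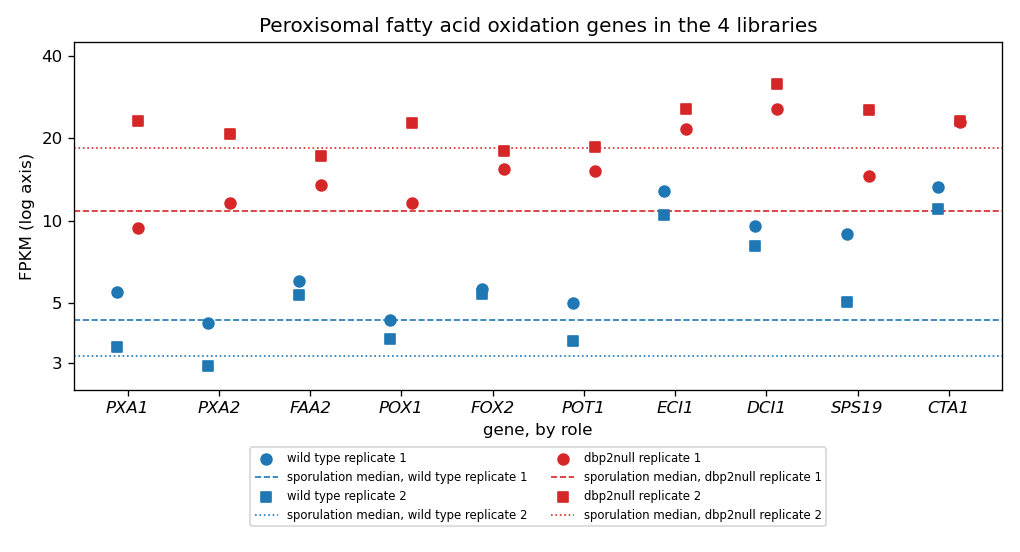
FPKM of the 10 genes on a log axis, 1 point per library, with wild type in blue and dbp2null in red, circles for replicate 1 and squares for replicate 2. Lines mark the median of 53 sporulation genes in each library. Every red point lies above both blue points of its gene, and the points of PXA1, PXA2, POX1 and POT1 lie near the lines of their own library.

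Import and activation come first. PXA1 (YPL147W, chromosome XVI, 273255 to 275867), for one subunit of the acyl-CoA transporter, stood at 9.38 and 23.2 FPKM in dbp2null replicates 1 and 2 and at 5.45 and 3.43 FPKM in wild-type replicates 1 and 2. The groups did not overlap, but the dbp2null libraries differed 2.47-fold, the widest gap among the 10 genes. The log2 fold change of PXA1 on log2(FPKM + 1), which understates changes of weak genes, was 1.57 (SE 0.53, limma adjusted p = 0.106). PXA2 (YKL188C, chromosome XI, 86225 to 88786), for the partner subunit, read 11.6 and 20.7 FPKM in dbp2null, and in wild type 4.20 and 2.92 FPKM. PXA2 had the largest log2 fold change of the 10, 1.87 (SE 0.43, limma adjusted p = 0.0660). FAA2 (YER015W, chromosome V, 184541 to 186775) encodes the acyl-CoA synthetase that activates medium-chain fatty acids inside the peroxisome. It read 13.5 and 17.2 FPKM in dbp2null against 6.03 and 5.31 FPKM in wild type (log2 fold change 1.29, SE 0.28, limma adjusted p = 0.0631). Its dbp2null libraries lay closer together than those of the transporter genes.

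The core cycle has a single gene for each step. POX1 (YGL205W, chromosome VII, 108158 to 110404) encodes acyl-CoA oxidase, the first step and the source of hydrogen peroxide. POX1 read 11.6 and 22.9 FPKM in dbp2null, and in wild type 4.31 and 3.67 FPKM, a log2 fold change of 1.80 (SE 0.42, limma adjusted p = 0.0677). Both dbp2null values were above wild type, with replicate 2 at 1.98 times replicate 1. FOX2 (YKR009C, chromosome XI, 454352 to 457054) encodes the multifunctional enzyme of the hydratase and dehydrogenase steps. It stood at 15.5 and 17.9 FPKM in dbp2null against 5.62 and 5.38 FPKM in wild type (log2 fold change 1.44, SE 0.26, limma adjusted p = 0.0559). POT1 (YIL160C, chromosome IX, 40191 to 41444), for the 3-ketoacyl-CoA thiolase that closes the cycle, stood at 15.3 and 18.5 FPKM in dbp2null, and in wild type 4.97 and 3.61 FPKM. Its log2 fold change was 1.77 (SE 0.31, limma adjusted p = 0.0559). FOX2 and POT1 were thus tighter between the dbp2null libraries than POX1, and the 3 core genes had means between 16.7 and 17.2 FPKM there.

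The auxiliary enzymes handle unsaturated fatty acids. ECI1 (YLR284C, chromosome XII, 706198 to 707040), for the enoyl-CoA isomerase that moves double bonds, read 21.6 and 25.6 FPKM in dbp2null, and in wild type 12.8 and 10.5 FPKM. The log2 fold change of ECI1 was 0.96 (SE 0.21, limma adjusted p = 0.0620). DCI1 (YOR180C, chromosome XV, 674352 to 675167), its paralog, reported to be a dienoyl-CoA isomerase, read 25.6 and 31.7 FPKM against 9.57 and 8.09 FPKM in wild type. DCI1 had the lowest adjusted p of the 10, with a log2 fold change of 1.59 (SE 0.21, limma adjusted p = 0.0551). ECI1 lay above DCI1 in wild type and DCI1 had the higher mean in dbp2null, where their ranges overlapped. A nucleotide comparison of the coding sequences aligned only 66 bases of the pair, at 77.3% identity, and no other of the 10 genes aligned to another coding sequence. SPS19 (YNL202W, chromosome XIV, 259578 to 260456), for the 2,4-dienoyl-CoA reductase, is also a gene of sporulation. SPS19 read 14.5 and 25.5 FPKM in dbp2null against 8.90 and 5.03 FPKM in wild type (log2 fold change 1.39, SE 0.41, limma adjusted p = 0.0845). Both genotypes were spread widely for this gene.

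CTA1 (YDR256C, chromosome IV, 968133 to 969680) encodes the peroxisomal catalase. It read 23.0 and 23.2 FPKM in dbp2null, and in wild type 13.2 and 11.1 FPKM, the closest agreement between dbp2null libraries and the smallest log2 fold change of the 10, 0.88 (SE 0.19, limma adjusted p = 0.0620). CTT1, the cytosolic catalase gene and a stress gene, stood at 45.4 and 29.9 FPKM in dbp2null against 15.3 and 15.2 FPKM in wild type (log2 fold change 1.22, SE 0.25, limma adjusted p = 0.0608). CTT1 thus lay above CTA1 in all 4 libraries, and it too missed the threshold.

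**Figure D2:**
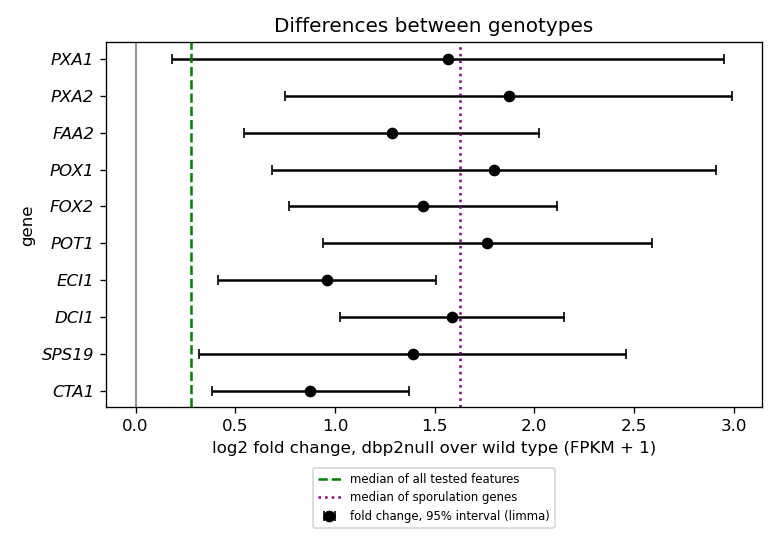
Log2 fold change of each gene, dbp2null over wild type on log2(FPKM + 1), with limma's 95% interval for each gene on its own. The dashed line is the median of all 6781 tested features (0.28) and the dotted line that of the sporulation genes (1.63). Each interval lies above 0, from 0.18 at the low end for PXA1, and those of 8 genes reach the dotted line.

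Across the list, 0 of 10 genes had a limma adjusted p below 0.05, while 1.19% of 6781 tested features did (66 higher and 15 lower). At an unadjusted p below 0.05 all 10 were higher, where 32.5% of all features were called higher. That count was 8 with median centring, 1 with quantile normalization, 0 with protein-coding features rescaled to one sum, and 1 of the 9 genes left with the sporulation median subtracted. Under the rescaling the log2 fold changes of the 10 were larger, with a median of 2.27 beside 1.08 for all features. Their SEs were larger too, from 1.35 for CTA1 to 1.59 for PXA2. Both dbp2null values lay above both wild-type values for 10 of 10 genes, against 49.8% of all features. Among features as weak as these genes that share was near complete. It was 94.8%, 95.1% and 92.6% at wild-type means of 2 to 4, 4 to 8 and 8 to 16 FPKM, the classes that hold the 10. An exact permutation test on 2 against 2 libraries cannot give a p below 0.333, so the test leans on limma's spread pooled across features. The median log2 fold change of the 10 was 1.51, beside 0.28 for all tested features and 1.63 for the sporulation list. Taking 1 dbp2null library at a time, the medians of the 10, of the sporulation list and of all features were 1.23, 1.40 and 0.37 in replicate 1 and 1.76, 1.96 and 0.23 in replicate 2. The call count changed with the library left out. Without dbp2null replicate 1, 7 of the 10 passed, all higher and all but ECI1, SPS19 and CTA1, and 2512 of all features did. The dbp2null group is then 1 library, assumed to vary like the others, and the spread comes from the wild-type pair alone, which differed less than the dbp2null pair (SD of the log2 difference 0.71 against 1.56). With quantile normalization, which forces the libraries to one distribution, the median of the 10 became 0.18 and FAA2 turned to -0.11.

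The size of the difference followed the level in wild type across the whole table. Among 210 features with a wild-type mean of 2 to 4 FPKM the median log2 fold change was 1.97, among 468 at 4 to 8 FPKM it was 1.60, and among 1131 at 8 to 16 FPKM it was 0.91. It was 0.06 among 1168 features at 32 to 64 FPKM and -1.03 among 1410 at 128 FPKM or more. The wild-type values enter both quantities, so part of any such slope comes from their error. PXA2 and POX1 fell in the lowest of these classes, with log2 fold changes of 1.87 and 1.80 between quartiles of 1.65 and 2.50. PXA1, FAA2, FOX2, POT1 and SPS19 fell in the next, at 1.29 to 1.77 between quartiles of 1.26 and 2.04. In the third, CTA1 and ECI1 lay between quartiles of 0.67 and 1.21, and DCI1, at 1.59, lay above them. The 9 genes other than DCI1 were thus within the middle of the features of their own level.

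**Figure D3:**
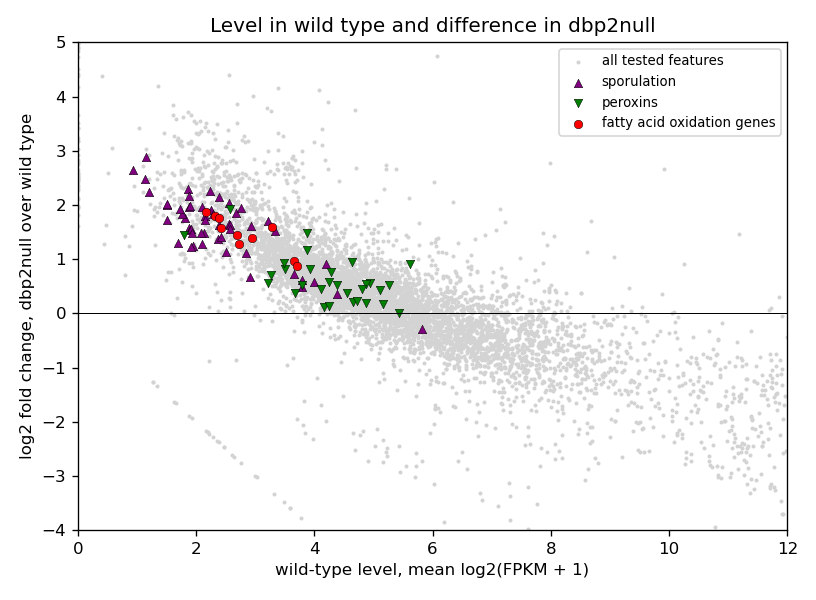
Log2 fold change, dbp2null over wild type, against the wild-type level as mean log2(FPKM + 1), with all tested features in grey, sporulation genes in purple, peroxins in green and the 10 oxidation genes in red. The axes leave out 375 features. The red points lie on the left, within the grey band that slopes down from weakly to strongly expressed features, with DCI1 at its upper part.

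Measured as a difference in mean FPKM, the gap between genotypes was similar across most of the list. It was 9.67 FPKM for FAA2 and 13.2 FPKM for POX1, with 7 others between, and 19.8 FPKM for DCI1. In single dbp2null libraries the gap to the wild-type mean varied more. It ran from 4.94 to 16.7 FPKM in replicate 1 and from 11.0 to 22.8 FPKM in replicate 2. The median difference was 12.3 FPKM for the 10 genes, 9.27 FPKM for the sporulation list and 6.53 FPKM for all tested features. The list was therefore flatter in dbp2null, where the highest mean was 1.87 times the lowest, than in wild type, where it was 3.41 times. For the sporulation list this ratio was 57.8 in wild type and 6.45 in dbp2null. It was 5.28 and 2.59 for 6 regulators and 19.4 and 10.7 for 30 genes of the peroxin list. For 21 other genes linked to peroxisomal metabolism it was 105 and 14.5. A flatter list in dbp2null is thus no trait of the 10 genes alone. In wild type the order from high to low was CTA1, ECI1, DCI1, SPS19, FAA2, FOX2, PXA1, POT1, POX1 and PXA2. The 1 step in it where the values of neighbours did not overlap was between ECI1 and DCI1. In dbp2null the order was DCI1, ECI1, CTA1, SPS19, POX1, POT1, FOX2, PXA1, PXA2 and FAA2, and the values of all neighbours overlapped. All 10 genes were higher in dbp2null replicate 2 than in replicate 1, as were 51 of the 53 sporulation genes. All 10 were lower in wild-type replicate 2 than in replicate 1, as were 47 of the 53. These 2 counts were 5 and 6 of the 6 regulators and 19 and 24 of the 30 genes of the peroxin list. They were 13 and 14 of the 21 other genes linked to peroxisomal metabolism. The shares over all features were not counted.

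Set against the sporulation median of the same library, the genes ran from 0.92 to 3.48 times it in wild type and from 0.87 to 2.36 times in dbp2null. The FPKM of PXA2 was 0.97 and 0.92 times the sporulation median in wild type and 1.07 and 1.12 times in dbp2null. POX1 stood at 1.00 and 1.15 times in wild type and 1.07 and 1.24 times in dbp2null, and POT1 at 1.15 and 1.13 and then 1.41 and 1.01 times. PXA1 stood at 1.26 and 1.08 and then 0.87 and 1.26 times. These 4 genes thus lay at 0.87 to 1.41 times the level of genes not needed in growth. FOX2 stood at 1.30 and 1.69 times in wild type and 1.43 and 0.97 times in dbp2null, FAA2 at 1.40 and 1.67 and then 1.24 and 0.93 times, and SPS19 at 2.06 and 1.58 and then 1.34 and 1.38 times. CTA1 stood at 3.07 and 3.48 times in wild type and 2.13 and 1.26 times in dbp2null. ECI1 stood at 2.96 and 3.29 times in wild type and 1.996 and 1.39 times in dbp2null. CTA1, ECI1, FAA2 and SPS19 were thus higher in FPKM and lower in this ratio in both dbp2null libraries, with no overlap in either measure. PXA2 was higher in both, and the other 5 genes overlapped between genotypes in the ratio. DCI1, at 2.22 and 2.54 times in wild type and 2.36 and 1.72 times in dbp2null, was among those 5. The median of all tested features fell in this ratio too, from 7.54 and 9.30 times in wild type to 3.70 and 2.11 times in dbp2null. A lower ratio is thus no trait of CTA1, ECI1, FAA2 and SPS19 alone, and the share of all features lower without overlap was not counted. In wild-type replicates 1 and 2, 5 and 6 of the 53 sporulation genes were at or above CTA1, and 27 and 28 at or above PXA2.

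**Figure D4:**
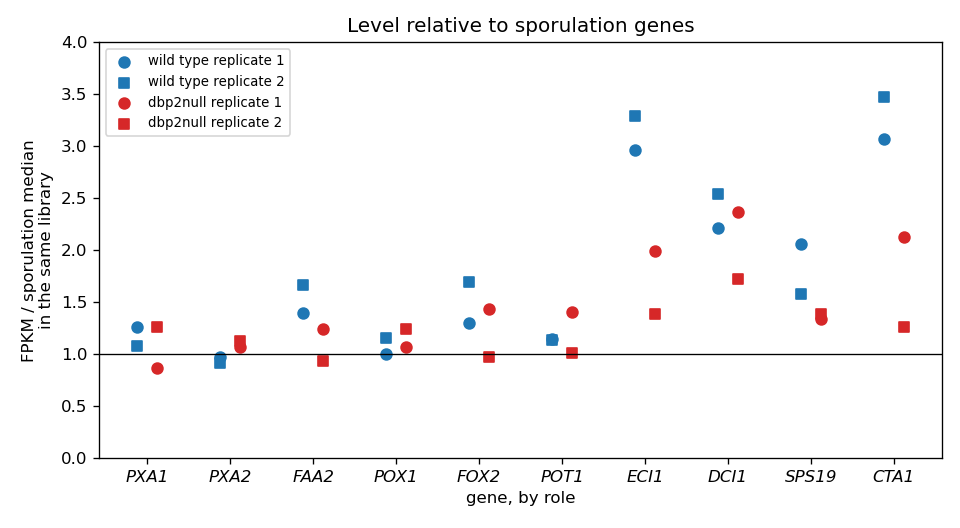
FPKM of each gene divided by the median FPKM of 53 sporulation genes in the same library, 1 point per library, with wild type in blue and dbp2null in red, circles for replicate 1 and squares for replicate 2. The line at 1 marks the sporulation median. CTA1 and ECI1 lie at 2.96 to 3.48 in wild type and 1.26 to 2.13 in dbp2null, while PXA1, PXA2, POX1 and POT1 stay between 0.87 and 1.41 in all libraries.

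The regulators of the pathway read above most of the oxidation genes in wild type. None of 6 was called by limma, against 1.19% of all features. All 6 had a positive log2 fold change, against 62.3% of all features, and 4 were higher at an unadjusted p below 0.05, against 32.5%. Their median log2 fold change was 0.73, beside 0.28 for all features. PIP2, for the oleate-induced partner of Oaf1, read 16.8 and 29.4 FPKM in dbp2null against 9.04 and 7.79 FPKM in wild type (log2 fold change 1.31, SE 0.32, limma adjusted p = 0.0695). ADR1, for an activator released when glucose is spent, read 14.2 and 19.9 FPKM against 7.95 and 6.34 FPKM. OAF1 read 22.0 and 31.3 FPKM against 15.1 and 11.8 FPKM. The groups did not overlap for any of the 6, against 49.8% of all features higher without overlap. Of features with a wild-type mean of 8 to 16 FPKM, where the list's wild-type medians lay, 92.6% were higher without overlap. For PIP2, ADR1 and OAF1 the log2 fold changes of 1.31, 1.13 and 0.93 missed the threshold.

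Other genes of peroxisomal metabolism or linked to it, as the carnitine genes YAT1, YAT2 and CRC1, lay on both sides of wild type. Their proportion was that seen over the whole table. Of 21, none was called by limma, against 1.19% of all features, and 13 read higher and 8 lower, a share of 61.9% higher against 62.3%. At an unadjusted p below 0.05 there were 9 higher and 1 lower, against 32.5% and 5.41% of all features. Their median log2 fold change was 0.49, beside 0.28. Carnitine carries the acetyl units made by β-oxidation towards mitochondria. CAT2, for the carnitine acetyltransferase of peroxisomes and mitochondria, read 17.3 and 26.7 FPKM in dbp2null against 5.51 and 5.21 FPKM in wild type (log2 fold change 1.82). YAT1, for another carnitine acetyltransferase, read 13.2 and 21.8 FPKM against 4.86 and 3.12 FPKM, and STR3, for cystathionine β-lyase, 14.6 and 20.03 FPKM against 4.97 and 4.34 FPKM. These 3 weak genes had values like those of the oxidation genes. AAT2, for an aspartate aminotransferase, read lower at 90.8 and 70.5 FPKM against 165 and 175 FPKM (log2 fold change -1.08). ANT1, for the peroxisomal ATP carrier, read 15.98 and 9.90 FPKM against 19.9 and 23.7 FPKM. GPD1, for glycerol 3-phosphate dehydrogenase, read 51.1 and 42.4 FPKM against 66.6 and 69.0 FPKM. These 3 read lower in both dbp2null libraries without passing the test.

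Peroxins build the organelle and import its enzymes. Of 30 genes, the peroxins with the inheritance factors INP1 and INP2, none was called by limma, against 1.19% of all features, and 29 had a positive log2 fold change, a share of 96.7% against 62.3%. At an unadjusted p below 0.05, 17 were higher, against 32.5% of all features, and the median was 0.54 beside 0.28. The wild-type medians of this list were 19.6 and 17.2 FPKM. Features of similar level had median log2 fold changes of 0.47, at wild-type means of 16 to 32 FPKM, and 0.91, at 8 to 16 FPKM. PEX18, for a co-receptor of the import route that Pot1 uses, read 17.1 and 26.9 FPKM in dbp2null against 6.20 and 3.92 FPKM in wild type (log2 fold change 1.92, SE 0.36, limma adjusted p = 0.0580). PEX5, for the receptor of the other route, read 29.4 and 34.9 FPKM against 14.96 and 12.4 FPKM. PEX6, for an ATPase that recycles receptors, read 27.2 and 59.0 FPKM against 14.7 and 12.8 FPKM. PEX4, the 1 gene with a negative value, lay on both sides of wild type at 47.8 and 37.0 FPKM against 40.2 and 44.0 FPKM. Translated coding sequences of FOX2 and SPS19 end in a type 1 peroxisomal signal (serine, alanine or cysteine, then a basic residue, then leucine or methionine), 2 of 10 genes against 0.483% of 6002. Other variants of the signal were not searched. Among the sporulation genes 1 of 53 was called (1.89%), near the 1.19% of all features. It was SPS100, for a spore wall protein, at 20.2 and 24.2 FPKM against 4.33 and 4.13 FPKM in wild type (log2 fold change 2.15, SE 0.25, limma adjusted p = 0.0481).

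The features nearest to the median profile of the 10 genes, by Euclidean distance over the 4 values of log2(FPKM + 1), were DUR3, NDE2, BOP2, PRM1 and UBP9, at distances from 0.051 to 0.17. DUR3, the closest, read 14.5 and 22.5 FPKM in dbp2null, and in wild type 5.78 and 5.28 FPKM, where the median profile was 14.9 and 23.0 and then 5.82 and 5.17 FPKM. With 4 libraries, such likeness is mostly one of level and of the genotype difference.

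Neighbouring genes were checked because the sources used here do not say whether reads were counted by strand. NOP53, convergent with PXA1 at a gap of 294 bases, stood at 16.3 times its wild-type mean, and CHC1, divergent from POX1 at 653 bases, at 18.1 times. NOP53 read 71.3 and 63.6 FPKM in dbp2null against 83.9 and 60.6 FPKM in wild type, and CHC1 52.1 and 41.9 FPKM against 77.1 and 67.5 FPKM, while PXA1 and POX1 read higher in both dbp2null libraries. The closest convergent neighbours, SMU2 and PUT7, read higher along with their gene. SMU2, 50 bases from POT1, stood at 51.8 and 52.7 FPKM in dbp2null against 30.5 and 23.3 FPKM in wild type, and PUT7, 67 bases from ECI1, at 27.5 and 26.6 FPKM against 15.4 and 16.7 FPKM. PSY2, 170 bases from SPS19, overlapped between genotypes, at 38.6 and 31.4 FPKM against 31.5 and 30.5 FPKM. RSC4, 273 bases from FOX2, read lower, at 17.9 and 19.9 FPKM against 25.9 and 20.9 FPKM. Of 18 flanking genes with values, 10 read higher in dbp2null without overlap and 3 lower, against 49.8% and 20.7% of all features. Whether reads of these neighbours enter the values of the oxidation genes was not tested. Of the 10 genes, FAA2 was the 1 that overlapped another gene of the RefSeq annotation, BUD25 on the opposite strand, which was listed at 0 in both dbp2null libraries and in wild-type replicate 2 and at 24.98 FPKM in wild-type replicate 1. SPS18 lies divergent from SPS19 at a gap of 300 bases that holds the element printed above. It was listed at 0 in both wild-type libraries and at 15.8 and 24.9 FPKM in dbp2null, close to the 14.5 and 25.5 FPKM of SPS19. A listed 0 may reflect an estimate that failed, so no fold is given. BUD25, SPS18, SMU2, PUT7, PSY2 and RSC4 were picked out after their values were seen.

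The genotype labels were borne out by DBP2 itself, at 2.90 and 1.03 FPKM in dbp2null, and in wild type 213 and 199 FPKM. The libraries differed in makeup. FPKM over all features summed to 3.37e+06 in dbp2null replicate 2 and to between 3.22e+07 and 5.29e+07 in the other 3, and nuclear protein-coding features held 20.2% of it in that library and 4.14% to 6.94% in the others. Their median was 37.9 and 38.2 FPKM in dbp2null, and in wild type 30.3 and 27.3 FPKM. How far makeup carries the values of the oxidation genes was not tested beyond the normalizations tried. The depth of each library is unknown, so no counting interval can be given.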

How the data were processed

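The authors deposited FPKM values of 4 libraries as columns of a single table. The submitters' processing notes name the tools CASAVA, TopHat, Cufflinks and edgeR, and sacCer3 as build, with no role, order or version given in the sources used here. Per the labels' protocols, ribosomal RNA was depleted and short RNAs were kept. After 3 blank rows were left out, 7126 features remained, and all 122 listed genes matched the RefSeq annotation of the R64 assembly by systematic name. FPKM times length, over the lowest such value in a library, lay within 0.05 of a whole number for 9.2% to 12.2% of 500 low values per library, where 10% would by chance, so no read counts were recovered.

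Features averaging 1 FPKM or more, 6781 in all, were fitted as log2(FPKM + 1) with limma 3.58.1 in R 4.3.3. The fit used a mean-variance trend and no covariate, two-sided, with Benjamini-Hochberg over all features and a threshold of 0.05. It was tried on simulated data with the same spread in every feature and library and with larger differences than those of the 10 genes. That trial checks the code and does not show how the test performs on these libraries. Coding sequences were compared with blastn 2.17.0. Alternatives were other pseudocounts, filters and normalizations, no trend, subtraction of the sporulation median, a replicate block and each library left out. The members and lists were chosen with earlier results of these data known. By rule all 10 members were named, with list genes that passed the test or else up to 3 in each direction by fold change at a mean of at least 10 FPKM. No batch is given in the labels.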

Additional observations from a re-analysis of the deposited data

How the results depend on the processing

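Of the 10 oxidation genes, 0 were called with all 4 libraries, and 0 to 7 with each library left out in turn. With a pseudocount of 5, 1 was called, DCI1, beside 425 of all 6781 features, and with the replicate block 0, beside 16 of all features. The replicate numbers were also crossed, a setting chosen after the data were seen because same-numbered libraries deviated with r = -0.11. All 10 were then called, but so were 2667 of all 6781 features. The labels do not say whether libraries of the same replicate number belong together. Their median log2 fold change lay 1.23 above that of all features, 0.86 to 1.53 with each library left out, and 0.20 with quantile normalization. FAA2 turned to -0.11 with quantile normalization. With the sporulation median subtracted in each library FAA2 turned to -0.61 (SE 1.05), FOX2 to -0.18 (SE 1.17) and CTA1 to -0.11 (SE 0.50), and PXA2 fell below the filter. These SEs exceed the fold changes, so no direction can be read from them. Values below the sporulation median were set to 0, as were those of FAA2 and FOX2 in dbp2null replicate 2. The median of the 10 minus that of the sporulation list, -0.12, became 0.00038 with quantile normalization, -0.42 with the sporulation median subtracted, -0.18 at a mean of at least 10 FPKM, -0.19 and -0.053 with pseudocounts of 0.1 and 5, and -0.21 to -0.098 with each library left out. The cause of these changes was not tested.

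Of all features 81 were called, and 0 to 2512 with each library left out. The count was 8 with a pseudocount of 0.1, 425 with a pseudocount of 5, 48 without a filter, 13 with a mean of at least 10 FPKM, 13 with median centring, 5 with quantile normalization, 41 without the trend, 7 with the sporulation median subtracted, 16 with the replicate block and 2667 with the numbers crossed. Calls were 66 higher and 15 lower at first, but 3 higher and 10 lower after median centring, 1 and 4 after quantile normalization and 48 and 52 with protein-coding features rescaled to one sum, which moved the median of all features from 0.28 to 1.08. Without wild-type replicate 1, limma called 0 features, with 1423 at an unadjusted p below 0.05.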
